A study of Drosophila melanogaster with 2 samples.

Results

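Apicobasal polarity, the difference between the apical and the basal side of an epithelial cell, rests in Drosophila melanogaster on a small set of proteins that form 3 modules. The 8 genes described here encode their core components. They are scrib, dlg1 and l(2)gl of the Scribble module, par-6, aPKC and baz of the Par complex, and crb and sdt of the Crumbs complex. They were listed by name and are 8 of the 13945 protein-coding genes on the main chromosome arms in the Ensembl annotation. Each gene was examined with 5 kb on either side.

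CG12605 is a zinc finger protein related to Snail and Scratch. Its binding was mapped by chromatin immunoprecipitation and sequencing (ChIP-seq) with an antibody against green fluorescent protein. The chromatin came from transgenic flies that expressed CG12605 fused to enhanced green fluorescent protein (eGFP), taken as whole pupae aged 1 day. Both libraries carry the fusion and are biological replicates of a single group, with no second condition. The labels do not say whether the tagged gene replaces the endogenous copy or is added to it, what drives it, or how many animals were pooled. A whole pupa holds every tissue, so strong binding in few cells and weak binding in many cannot be told apart, and no epithelium was separated from other cells.

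The Par and Crumbs complexes mark the apical side and the Scribble module the basolateral side, and the modules hold each other in place, largely by phosphorylation through aPKC. Loss of any gene of the Scribble module lets imaginal disc epithelia lose their layered form and overgrow, so these genes are known as neoplastic tumour suppressors. Proteins of the Snail family are known in other settings as repressors of epithelial genes, including crumbs homologues in mammalian cells. That is background and not a result of these data.

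The authors deposited peak lists filtered by IDR, the irreproducible discovery rate. A low IDR means that a peak ranks consistently high when peaks are called on paired data. The conservative list of 6776 peaks was used throughout unless another is named. Replicate 1 alone gave 4022 thresholded peaks and replicate 2 gave 5394. A summit is the position of the highest point within a peak, and positions are on dm6 (Release 6), counted from 1. The signal of a peak is the authors' own value, in units whose scaling is unknown here, and the depth of the libraries is likewise unknown.

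The 8 regions held 41 conservative summits, and 7 of the 8 genes had at least 1. Of the 41, 15 lay within 1000 bp of an annotated start site of the polarity gene itself. Only l(2)gl had none in the gene or its flanks. The strongest summit was in baz, with a signal of 623, followed by the summit upstream of scrib, with a signal of 342. The next was a summit in the first part of scrib, at 209.

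Sequences under some of the stronger summits are shown first. They are the 101 bp centred on member summits with a signal above 100, read from the plus strand of Release 6. Windows with more than 30 bases of an untranslated region were left out, as were those in aPKC. The strongest summit, in baz at 623, and the par-6 summit at 168 are therefore not shown, as their windows hold 101 such bases. The windows shown were chosen after their signals were seen. Capitals mark matches to TATAAA or GAGAG on either strand, so that TTTATA and CTCTC are also capitals. Lower case holds none of the searched motifs.
scrib, chr3R:26535822-26535922, upstream of the first start site: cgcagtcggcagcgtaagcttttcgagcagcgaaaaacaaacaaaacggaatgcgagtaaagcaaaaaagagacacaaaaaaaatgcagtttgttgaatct
scrib, chr3R:26542281-26542381, intron: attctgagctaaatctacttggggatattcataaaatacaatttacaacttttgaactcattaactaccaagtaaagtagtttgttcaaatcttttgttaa
dlg1, chrX:11390772-11390872, intron behind 3 internal start sites: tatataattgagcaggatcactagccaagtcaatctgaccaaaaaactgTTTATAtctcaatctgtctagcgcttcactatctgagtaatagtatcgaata
dlg1, chrX:11389945-11390045, just before an internal start site: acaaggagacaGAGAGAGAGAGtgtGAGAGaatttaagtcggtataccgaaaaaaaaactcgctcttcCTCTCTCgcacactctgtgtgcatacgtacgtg
crb, chr3R:24296017-24296117, first intron: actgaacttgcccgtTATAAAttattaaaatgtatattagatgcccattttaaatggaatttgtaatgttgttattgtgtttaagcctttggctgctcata
sdt, chrX:8196953-8197053, intron: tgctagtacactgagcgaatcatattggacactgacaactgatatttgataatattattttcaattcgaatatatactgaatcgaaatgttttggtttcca
sdt, chrX:8211545-8211645, intron: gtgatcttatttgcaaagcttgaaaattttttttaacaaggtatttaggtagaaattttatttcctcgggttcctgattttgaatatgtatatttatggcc

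None of the 7 windows holds CAACAGGTG, the site described for the related factor Scratch, or its core CACCTG. The other strand of CAACAGGTG contains CACCTG, so every match to the longer motif is also a match to the shorter. GAGAG repeats occur in the dlg1 window that ends near a start site, and TATAAA or its complement in the second dlg1 window and in crb. The windows are mostly rich in A and T. Their GC content was 40.6% in the upstream scrib window and 26.7% in the intronic one, 34.7% and 45.5% in dlg1, 29.7% in crb, and 30.7% and 28.7% in sdt. Both aPKC summits with a signal above 100 also have windows free of untranslated bases, with a GC content of 48.5% inside the gene and 29.7% upstream. Their letters are not printed because sequence of chromosome arm 2R is not reported here.

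**Figure D1:**
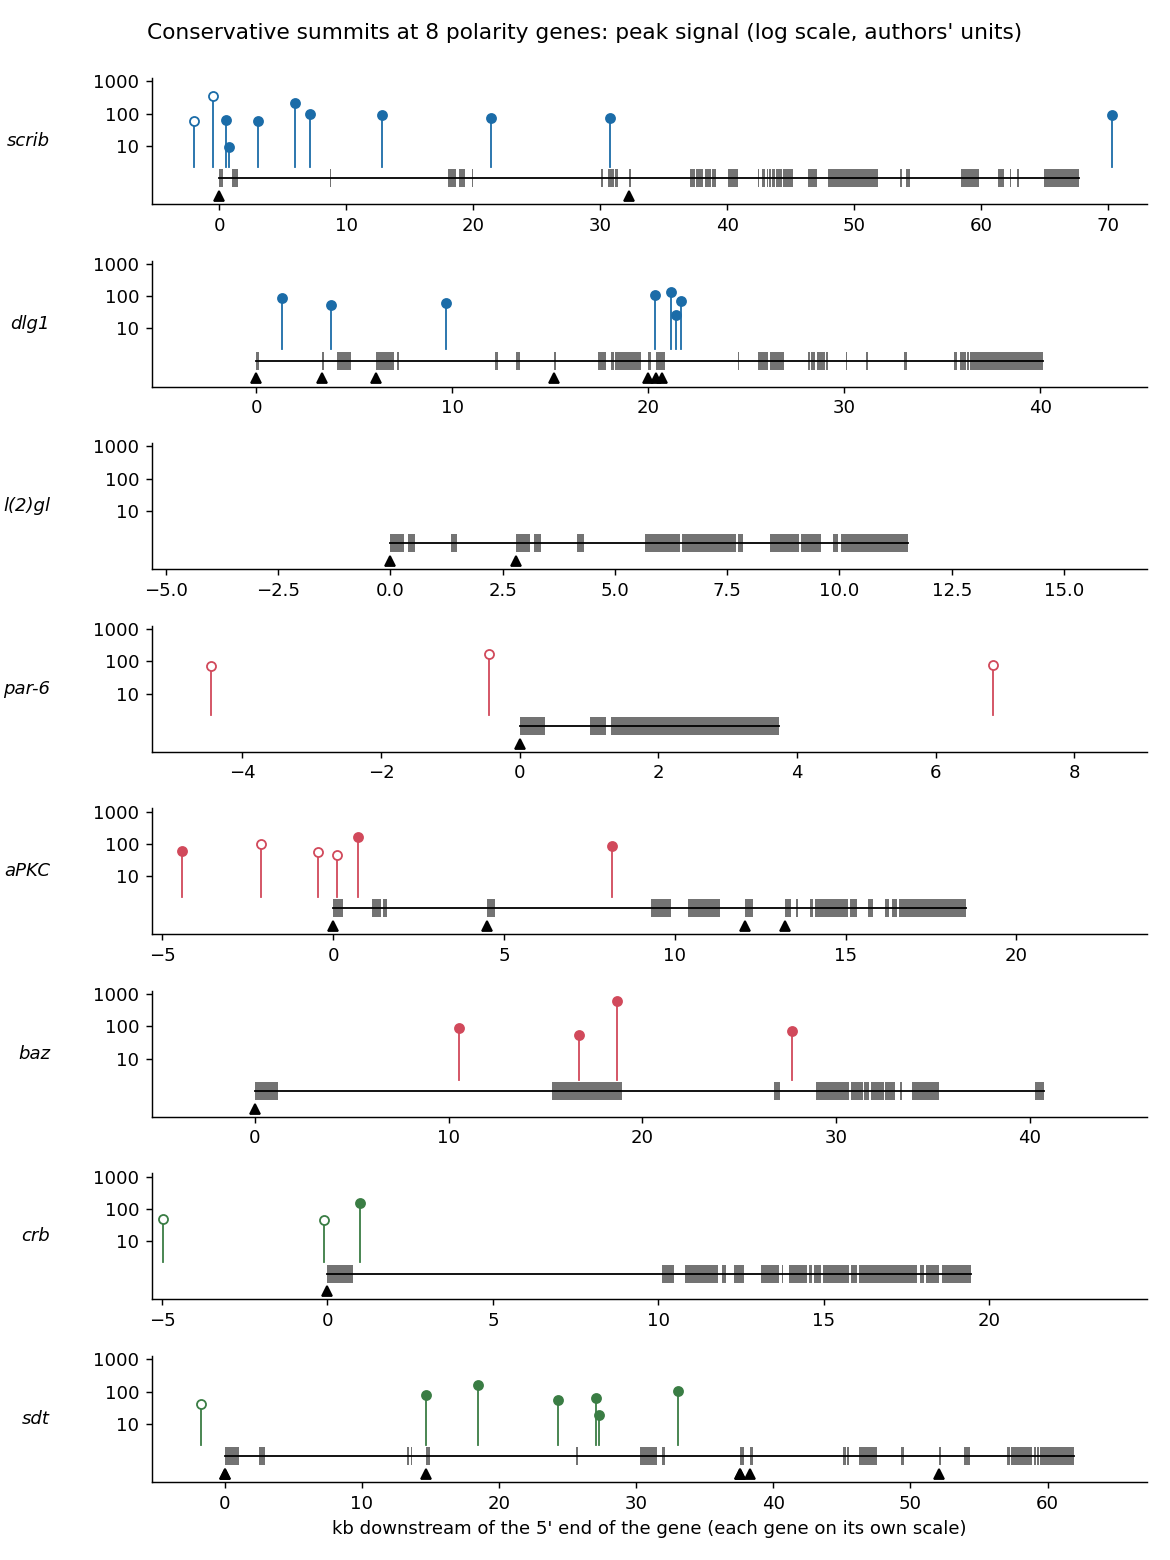
Conservative summits along each of the 8 genes, on a distance axis in kb from the 5′ end of the gene with 5 kb flanks, each gene on its own scale. Stem height is the authors' peak signal on a log scale, and open circles are summits within 1000 bp of another protein-coding gene's start site. Grey boxes are exons and triangles are annotated start sites. The gene scrib has 11 summits, l(2)gl has 0, and the highest stem is the baz summit at 623.

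At the start sites, 6 of the 8 genes had a conservative summit within 1000 bp, namely scrib, dlg1, par-6, aPKC, crb and sdt. Over all protein-coding genes the share was 23.1%. Most of the polarity genes are long and several have many start sites, which gives more positions for a summit. Among genes of at least 10 kb, 46.9% had a start-site summit, against 5 of the 7 polarity genes of that length. With the whole gene and 5 kb on either side, 7 of 8 had a summit, against 49.8% of all genes, and 6 of the 7 long ones did, against 70.8% of long genes. No test was made over the 8 genes, because they were listed with earlier results of these data known.

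The 1000 bp limit decided some of these positions. Just inside it lay a crb summit at 989 bp and a dlg1 summit at 982 bp, and just outside it a dlg1 summit at 1322 bp. Each of the 6 genes also had a summit within 500 bp. In aPKC and crb these were weak, with signals of 46.3 and 55.5 in aPKC and 46.0 in crb. None of them was in either replicate's thresholded list.

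Scribble, the product of scrib, is a scaffold of leucine-rich repeats and PDZ domains at the basolateral membrane and the septate junction. The gene (FBgn0263289) spans chr3R:26536350-26604051 on the plus strand, 67.7 kb with 2 annotated start sites. It had 11 summits, the most of the 8 genes.

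The strongest scrib summit, at chr3R:26535872, lay 478 bp upstream of the first start site, which 17 of its 18 annotated transcripts use. Its signal of 342 was rank 261 of the list and exceeded that of 96.1% of all peaks. Replicate 1 gave a signal of 183 and replicate 2 of 180.3. Both replicates placed it high: among the 5991 conservative summits with a match in each replicate's ranked list, it was 180th by replicate 1 signal and 279th by replicate 2 signal. A start site of the neighbouring gene plum lies 655 bp from this summit, so the position is shared between both genes. Which of them it acts on, if either, was not tested.

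Inside scrib, the summit at chr3R:26542331, 5981 bp behind the start site in an intron, had a signal of 209 at rank 701. It was 69.3 in replicate 1 and 135 in replicate 2, and so 1242nd and 524th in order. Another intronic summit, at chr3R:26543474, had a signal of 97.3 with the opposite tilt, 55.8 in replicate 1 and 28.5 in replicate 2, which were 1848th and 5580th. Both replicates placed the first of these summits above the second, with a far wider gap in replicate 2.

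The remaining scrib summits were weaker. A pair lay 551 bp and 767 bp behind the first start site with signals of 61.8 and 9.22, and the latter had no match within 100 bp in either replicate's ranked list. Intronic summits had signals of 57.9, 88.4 and 73.5. A summit at chr3R:26567077 fell in a coding exon, 1536 bp before the second start site, which serves a single transcript, with a signal of 74.6 and a GC content of 62.4%. Another summit, at 91.8, lay downstream of the gene. The last, at 59.6, lay 1987 bp upstream inside plum and 854 bp from a plum start site. The thresholded list of replicate 2 also held a summit 14 bp upstream of the first start site, with a signal of 47.7, that is not in the conservative list.

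Discs large, the product of dlg1, is a membrane-associated guanylate kinase scaffold that acts with Scribble in epithelia and is also prominent at the larval neuromuscular junction. The gene (FBgn0001624) spans chrX:11369665-11409776 on the plus strand, 40.1 kb with 7 start sites. All 7 of its summits were intronic, and none was within 1000 bp of a start site of another protein-coding gene.

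Binding in dlg1 gathered around 3 internal start sites, at positions 11389668, 11390069 and 11390372 of chromosome X, from which 6, 3 and 1 transcripts begin. The summit at chrX:11390822, 450 bp behind the last of these, had a signal of 131 at rank 1662, with 44.5 in replicate 1 and 76.9 in replicate 2. The summit at chrX:11389995, 74 bp before the middle start site, had a signal of 109, with 45.7 and 60.8. Both were in the thresholded lists of both replicates. A summit 982 bp behind the last start site had a signal of 71.6, and another, between it and the strongest, had a signal of 26.6 and no match in either replicate.

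The first dlg1 start site, used by 7 transcripts, had no summit within 1000 bp. Its nearest was 1322 bp downstream with a signal of 87.3. In the unfiltered ranked list there was a peak 599 bp away with a signal of 31.7, whose IDR of 0.466 was far above the limit of 0.01. Of the others, a summit with a signal of 52.4 lay 442 bp behind a start site that serves a single transcript, and an intronic one had a signal of 62.9.

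Lethal (2) giant larvae, the product of l(2)gl, is a WD40-repeat protein that aPKC phosphorylates and thereby keeps off the apical membrane. The gene (FBgn0002121) lies at chr2L:9839-21376 on the minus strand, 9838 bp from the end of the arm. It had no summit in any of the 4 thresholded lists. The conservative ranked list, with 47103 peaks before the IDR limit, had none either.

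Among the 8 lists used, a single peak fell in the l(2)gl region. It was in the ranked list of replicate 1, with its summit 763 bp from the start site, a signal of 13.7, an IDR of 0.471 and rank 19401 of 41147. The replicate 2 ranked list had none there. The first conservative summit on the arm came at chr2L:66837, 45461 bp from the gene, with a signal of 132, and the first in the conservative ranked list at chr2L:40431, 19055 bp away, with a signal of 33.7. The neighbours on that side are Ir21a, an ionotropic receptor gene, and Cda5. The assembly has 0 unsequenced bases in the region. How well reads align near this arm end was not analysed here, so unbound and poorly covered DNA cannot be told apart.

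Par-6 is an adaptor that binds aPKC and the small GTPase Cdc42. Its gene (FBgn0026192, chrX:17703352-17707096, plus strand) is the shortest of the 8, at 3.75 kb, with a single start site. All 3 of its summits were within 1000 bp of a start site of another gene, and none was inside par-6.

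The par-6 summit at chrX:17702918 was 434 bp upstream of the start site, with a signal of 168 at rank 1043. It was 80.0 in replicate 1 and 79.8 in replicate 2, in both thresholded lists. This summit is inside CG8188 and 106 bp from a start site of that gene, so it lies closer to CG8188 than to par-6. A summit behind the gene, with a signal of 77.7, was 41 bp from a start site of raskol, a Ras GTPase activating protein gene, and also near CG8173. The last, with a signal of 72.6, was 172 bp from a start site of chas. It had no match within 100 bp in replicate 1, where the nearest ranked peak was 155 bp away with a signal of 37.

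Atypical protein kinase C, the product of aPKC, is the kinase of the complex and phosphorylates Lethal (2) giant larvae and Bazooka. The gene (FBgn0261854) spans chr2R:14944458-14962969 on the minus strand, 18.5 kb with 4 start sites. Of its 6 summits, 3 were inside the gene and 3 upstream of it, and the most upstream start site was the only one of the 4 with a summit within 1000 bp.

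The aPKC summit at chr2R:14962253, in an intron 716 bp behind that start site, had a signal of 162 at rank 1125. Replicate 1 gave 57.1 and replicate 2 gave 112. A summit in the 5′ untranslated exon, 107 bp behind the start site, had a signal of 46.3, and another 433 bp upstream had a signal of 55.5. These weaker summits were near ckn, a gene for a scaffold of the Caskin family, at 430 bp and 110 bp from its start sites. Neither passed the threshold in a replicate's own list.

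Farther out, an upstream summit inside ckn had a signal of 101 and was matched in replicate 1, at 59.6, but in replicate 2 the nearest peak was 119 bp away, beyond the 100 bp allowed. An intronic summit had a signal of 85.3 and one 4429 bp upstream had 60.1.

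Bazooka, the fly Par-3, is the PDZ scaffold that places adherens junctions and recruits the rest of the Par complex. The gene (FBgn0000163, chrX:17160006-17200728, plus strand) is 40.7 kb long with a single start site used by all 4 transcripts. It had 4 summits, all inside the gene and none at the start site.

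The baz summit at chrX:17178721 had the highest signal of the 41, 623, at rank 65 of 6776, above 99.0% of all peaks. It was 278 in replicate 1 and 334 in replicate 2. Among the 5991 summits matched in each replicate it was 60th and 64th, so both replicates placed it alike. It lay 18715 bp behind the start site, with a GC content of 24.8%, in an untranslated exon of 3624 bp at chrX:17175347-17178970. That exon is the second of 2 of the 4 annotated transcripts and is part of an intron in the other 2.

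The other baz summits were far weaker, with signals of 87.3 and 71.3 in introns and 55.4 in the same untranslated exon. None of these was in the thresholded lists of both replicates. At the start site itself the conservative ranked list held a peak 49 bp upstream with a signal of 15.0 and an IDR of 0.368, which is not in the conservative list. The nearest conservative summit to the start site was 10146 bp upstream, outside the flank, with a signal of 62.0.

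Crumbs, the product of crb, is the transmembrane protein that defines the apical membrane. The gene (FBgn0259685) spans chr3R:24295078-24314541 on the plus strand, 19.5 kb with a single start site. Its first intron carried the strongest summit, at chr3R:24296067, with a signal of 156 at rank 1205.

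That crb summit was 65.3 in replicate 1 and 94.9 in replicate 2, in both thresholded lists. Replicate 1 placed it 989 bp behind the start site and replicate 2 placed it at 1016 bp, just past the limit. A weaker summit, 102 bp upstream of the start site, had a signal of 46.0, was in neither replicate's thresholded list, and was 577 bp from a start site of CG5715. Another, near the edge of the flank, had a signal of 49.7 and was 57 bp from the nearest start site of Uck or CG34290.

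Stardust, the product of sdt, is a membrane-associated guanylate kinase scaffold that binds the cytoplasmic tail of Crumbs. The gene (FBgn0261873) spans chrX:8178549-8240474 on the plus strand, 61.9 kb with 7 start sites. Of these, the single start site at position 8193200, used by 3 of 14 transcripts, had a conservative summit.

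The sdt summit there lay 45 bp behind the start site in a 5′ untranslated exon, with a signal of 77.9 and a GC content of 63.4%, the highest of the 41. It was 34.9 in replicate 1 and 46.4 in replicate 2, and passed the threshold in replicate 2 only. The strongest sdt summit was intronic, at chrX:8197003, 3803 bp behind the same start site, with a signal of 159 at rank 1159, and 66.6 and 89.6 in the replicates. A second intronic summit, at chrX:8211595, had a signal of 101, with 41.5 and 63.0. Both were in the thresholded lists of both replicates.

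Weaker sdt summits had intronic signals of 63.8, 54.6 and 18.5, the last with no match in either replicate. A summit 1699 bp upstream of the gene, with a signal of 40.5, lay inside slpr, a kinase gene of the JNK pathway, and 335 bp from a start site of it. The pair of start sites at the 5′ end of sdt, used by 4 and 2 transcripts, had no conservative summit within 1000 bp. The thresholded list of replicate 2 did hold a summit 641 bp upstream of the pair, with a signal of 37.7.

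**Figure D2:**
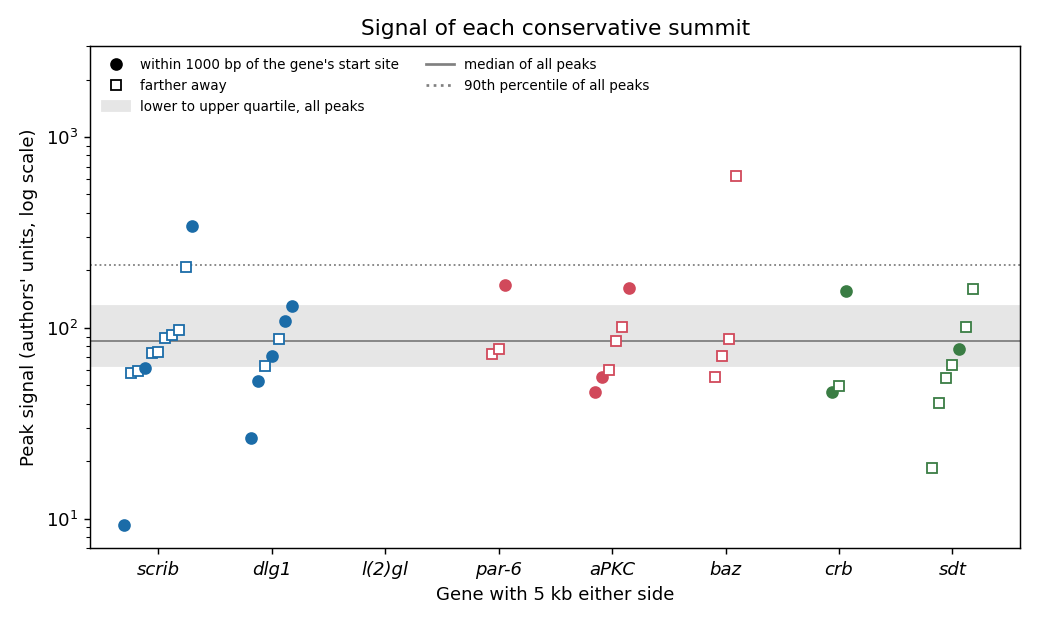
Signal of each of the 41 conservative summits on a log axis, by gene, in the authors' units; filled circles are within 1000 bp of a start site of the gene and open squares are farther away. The grey band runs from the lower to the upper quartile of all 6776 peaks with the median as a line, and the baz summit at 623 and the scrib summit at 342 stand above the dotted 90th percentile.

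Across the modules, the Scribble genes had 18 summits with a median signal of 74.0, the Par genes 13 with a median of 77.7, and the Crumbs genes 10 with a median of 59.2. Of these, 8, 4 and 3 were at start sites. The median over the 41 was 73.5, from 9.22 to 623, and over all peaks 85.6, with quartiles of 63.3 and 129. Of the 41, 2 were above the 90th percentile of all peaks by signal, or 4.88%. A signal above 100 was found at 11 of the 41 and at 2623 of all 6776 peaks. The summits of the polarity genes had a lower median signal than the list as a whole, with single high values in baz and scrib.

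By place, 24 of the 41 summits were intronic, 10 upstream of the gene, 4 in 5′ untranslated exons, 1 in a coding exon and 2 downstream. Near a start site of another protein-coding gene lay 11 summits, 5 of which were also within 1000 bp of a start site of the polarity gene. Neither the places nor this nearness were counted over all peaks, so these counts are not read as particular to the 8 genes. Within 1000 bp of any protein-coding start site lay 51.2%, against 50.5% of all peaks. Of the 25 start sites of the 8 genes, 9 had a summit, against 24.1% of all start sites of protein-coding genes. Start sites of a gene that lie close together share summits, as the 3 internal ones of dlg1 do.

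Summits were spaced more closely than over the arms as a whole. The 344 kb of the 8 regions held 1.19 summits per 10 kb, against 0.506 over the arms. The arms include long stretches with no conservative summit, which lower their density. On 2R the first came at position 5684214, and on 3R at 4174590. The median over the 1977 genes of at least 10 kb was 0.465, with quartiles of 0 and 1.02. By gene the density was 2.18 for par-6, 2.10 for aPKC, 1.42 for scrib, 1.40 for dlg1, 1.02 for crb, 0.973 for sdt, 0.789 for baz and 0 for l(2)gl. The par-6 gene is shorter than 10 kb, and all 3 of its summits were within 1000 bp of another gene's start site. Of the 199 peaks of the conservative ranked list in the regions, 20.6% were in the conservative list, against 14.4% of the whole ranked list.

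**Figure D3:**
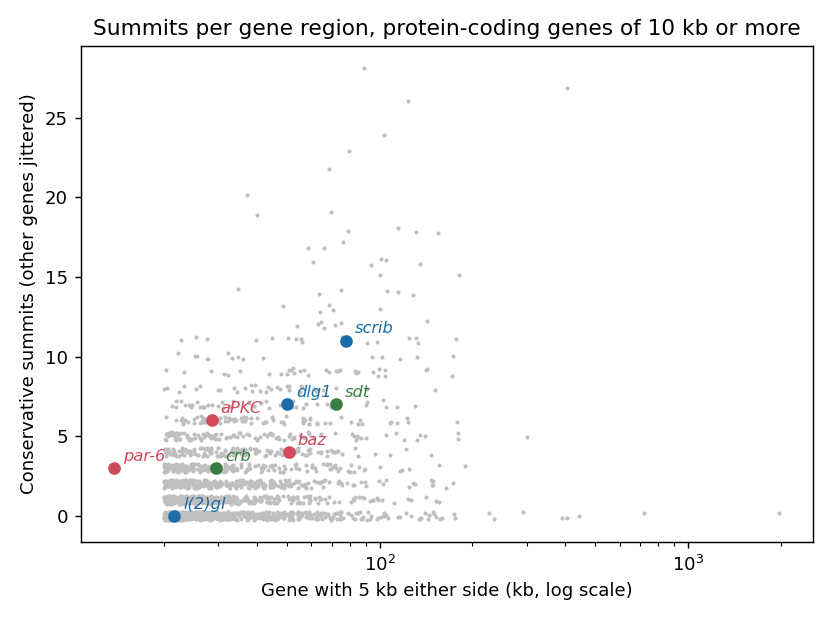
Number of conservative summits in each gene with 5 kb either side, against the length of that region in kb on a log axis, for protein-coding genes of 10 kb or more (grey, jittered vertically) with the 8 polarity genes in colour; par-6, at 3.75 kb, is shorter than that limit. scrib has 11 summits, dlg1 and sdt have 7 each, and l(2)gl has 0, and grey points lie both above and below scrib, dlg1 and sdt.

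Replicate support varied among the 41 summits. Both replicates' thresholded lists held a match within 100 bp for 14 of them, or 34.1%, against 45.0% of all conservative summits. The exact 95% binomial interval of that 45.0% was 43.9% to 46.2% and covers counting error only. No interval was computed for the share of the 41, which is far less certain, and the difference was not tested. A further 12 were in a single thresholded list and 15 in neither. With the ranked lists, 35 of 41 were matched in both replicates, against 88.4% of all. The 3 summits with no ranked match in either replicate, in scrib, dlg1 and sdt, had signals of 9.22, 26.6 and 18.5, and each overlapped a stronger conservative peak.

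Support followed the shape and height of the peak. The 9 peaks narrower than 360 bp had signals from 101 to 623, and all 9 were matched in both thresholded lists. The 32 peaks of 360 bp, the most common width, had signals from 9.22 to 109, and 5 were matched in both. Of the 11 summits with a signal above 100, 10 were matched in both, the exception being the aPKC summit inside ckn. Over the whole list, peaks narrower than 360 bp were also stronger than those of 360 bp. The 1583 narrower peaks had a median signal of 194, and the 5171 of 360 bp had 74.4. The highest median, 549, was that of the 22 peaks wider than 360 bp. Matches in both replicates were not counted by width or signal over all peaks. These counts are therefore not read as particular to the polarity genes.

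By replicate, 5 of the 8 genes had a start-site summit in the thresholded list of replicate 1, against 15.8% of all genes. In that of replicate 2 it was also 5, against 19.3%. These shares cover genes of every length, and those of long genes were not computed for the replicate lists. In replicate 1 the genes with a start-site summit were scrib, dlg1, par-6, aPKC and crb. In replicate 2, sdt took the place of crb, whose intronic summit was at 1016 bp there. The 4 genes scrib, dlg1, par-6 and aPKC were called by both lists. Signal was higher in replicate 2 at 25 of the 35 matched summits, or 71.4%, and at 72.1% of all matched summits, so the direction is shared with the whole list.

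**Figure D4:**
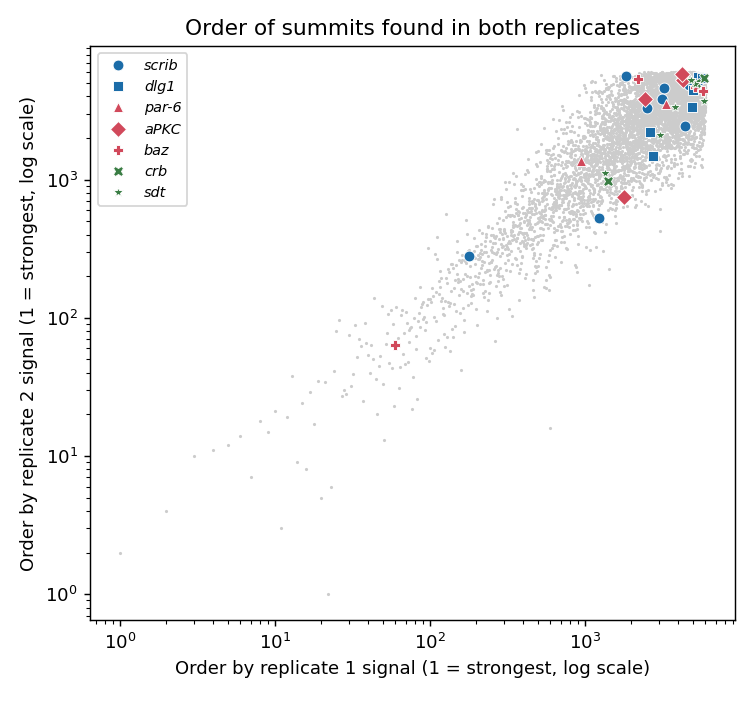
Order of the 5991 conservative summits matched in both replicates, 1 being the strongest, by signal in replicate 1 (horizontal, log scale) and replicate 2 (vertical, log scale), with the polarity gene summits in colour. The baz summit (60th and 64th) and the upstream scrib summit (180th and 279th) lie near the diagonal, and most others sit in the dense upper right corner of low signals.

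In sequence, the windows of 101 bp around the 41 summits had a median GC content of 33.7%, from 18.8% to 63.4%, against 36.6% for all peaks. The 11 summits with a signal above 100 had a median of 30.7%, against 32.7% for all peaks above 100. The 30 others had a median of 34.2%, against 39.6%.

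Motifs were counted on both strands. CAACAGGTG was in 0 of 41 windows, against 0.871% of all windows, CACCTG in 0 against 3.28%, and AGGTCA, the nuclear receptor core, in 0 against 1.48%. With such low shares over all peaks, 41 windows are few for finding any. GAGAG, the letters read by GAGA factor, was in 3 windows, or 7.32%, against 19.6%, and TATAAA in 8, or 19.5%, against 16.8%. These counts depend on the window. In 51 bp GAGAG was in 1 of the 41, or 2.44%, against 10.9%, and in the wider window tried in 11, or 26.8%, against 36.3%. TATAAA was in 5 in 51 bp, or 12.2%, against 8.72%, but in the wider window in 9, or 22.0%, against 26.3%, so its share was above that of the list in the narrower windows and below it in the wider one. A match is a description of letters and not a binding site.

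Genes that act with these modules were looked at in the same way, from a list of 17. Of these, 11 had a summit within 1000 bp of a start site, where the share of all protein-coding genes was 23.1%, and 14 had one in the gene or its flanks, where it was 49.8%. For genes of at least 10 kb those shares were 46.9% and 70.8%. The list is too short and too mixed in gene length to be read as more than these counts. Among regulators that set polarity by phosphorylation, 5 of 6 had a start-site summit. They were par-1, a basolateral kinase, with a signal of 352, Lkb1, its upstream kinase, with 137, mts and tws, subunits of protein phosphatase 2A, with 132 and 74.4, and 14-3-3zeta, which binds phosphorylated Bazooka, with 118. Only 14-3-3epsilon had none.

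Of the Crumbs partners, kst, which encodes a spectrin, and Moe, which encodes Moesin, each had a signal of 151, while Patj and veli had no start-site summit. Of the Par partners, smash had a signal of 115 and Cdc42 had none at a start site. The single Scribble partner on the list, gukh, had a signal of 104. In the Yurt and Coracle group, which acts on the lateral membrane, 2 of 4 had a start-site summit. They were cora with 91.2 and Atpalpha with 53.3, while yrt and Nrx-IV had none there. Atpalpha had no start-site summit in either replicate's thresholded list, and gukh had one in that of replicate 2 only. At kst, gukh, par-1, Lkb1 and mts the summit was also within 1000 bp of a start site of another gene, Drsl6, snRNP-U1-C, mei-W68, CG9588 and Rack1 in that order.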

How the data were processed

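Per the text deposited with each sample, reads were aligned to dm6 and peaks were called against a control and ranked by IDR. Neither aligner nor peak caller is given in the sources used here. The signal of each peak is the authors' deposited value, and the deposited score is a rescaled IDR (125 times log2 of 1/IDR, at most 1000). Each thresholded list holds peaks at an IDR of at most 0.01. The ranked list behind the conservative peaks is the one that contains each of them, and the other series-level list served as an alternative. There were 4 per-sample signal columns without sample names, which were not used. The control alignment and coverage tracks were not analysed here.

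Summits were placed on Ensembl 115 genes and Release 6 with Python 3.11.15, pandas 2.3.3, NumPy 2.4.6 and SciPy 1.17.1, and figures were drawn with matplotlib 3.10.9. A summit was called at a start site within 1000 bp, and matched to a replicate within 100 bp. All 8 genes are named, with every summit in the gene or 5 kb either side, and protein-coding neighbours with a start site within 1000 bp. Motifs were counted in 101 bp. The genes, the related list and the motifs were chosen with earlier results of these data known, so no test was made over them. Whether the 2 replicates came from separate animals is not stated beyond their being biological replicates.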

Additional observations from a re-analysis of the deposited data

How the results depend on the processing

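Of 35 alternatives for counts and medians, 29 were classed as the same as the value reported and 6 as moved. These classes do not measure closeness. Among those classed as the same, the 41 summits in the 8 regions fell to 29 without the flanks. Also classed as the same were their fall to 31 from replicate 2 alone, and a rise from 11 to 14 in summits near another gene's start site. The summits in the 8 regions, 41 in all, numbered 20 from replicate 1 alone and 31 from replicate 2 alone, and 16 among the stronger peaks of the list, those above its median signal. Summits matched in both replicates rose from 14 to 35 with the ranked lists. Summits near another gene's start site numbered 7 at 500 bp, and 14 at 1000 bp with start sites of noncoding genes included. The median GC content was 31.4% in 51 bp and 36.3% in the wider window tried, against 35.3% and 39.3% for all peaks, so it was below the list in each window. Of 31 alternatives for single summits and motifs, 10 were classed as moved, among them GAGAG, found in 11 of the 41 wider windows, or 26.8%, against 36.3% of all. Small shifts were also classed as moved here. The share of the ranked list below the baz summit went from 99.85% to 99.84% without replicate 2. The share with TATAAA went from above that of all peaks, 19.5% against 16.8%, to below it in the wider window, 22.0% against 26.3%. No paired analysis was possible because there is 1 group and no test. The unknown depth, the unknown scaling of the signal and the uneven support of the weak summits limit what the low values show. The gene nearest to a summit need not be the gene it acts on.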
